A study of Mus musculus with 24 samples.

Results

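After IL-1β stimulation, clone A2 of *Lkb1*-/-/*Crtc2*-/- MEFs was compared with *Lkb1*-/- MEFs, 3 RNA-seq libraries against 3, to ask which transcripts of LKB1-deficient fibroblasts differ when CRTC2 is also targeted. These 6 libraries were chosen by the genotype and treatment on their labels, out of 24 libraries in 8 groups. MEFs are mouse embryonic fibroblasts, here of an immortalized 3T3 line. *Lkb1*-/- MEFs lack functional LKB1 (gene *Stk11*). Clone A2 was derived from *Lkb1*-/- MEFs with CRISPR-Cas9 and guides to the first exon of *Crtc2* and is 1 clone, so that a difference can belong to *Crtc2*, to the clone or to the cell it was grown from, and these cannot be told apart from these 6 libraries. Both groups therefore lack LKB1 and received IL-1β at 0.1 ng/mL for 6 h. The other groups used below are the same 2 genotypes left untreated, a second double-knockout clone named A1 after IL-1β, and wild-type MEFs untreated and after IL-1β, with 3 libraries each. The labels do not say whether the 3 libraries of a group came from separate cultures, and all tests measure the spread between libraries, which may be technical.

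The tumour suppressor kinase LKB1 switches on a family of related kinases, among them the salt-inducible kinases (SIKs). Where SIKs are active, CRTC proteins and the class IIa deacetylases stay outside the nucleus. Once inside it, a CRTC protein binds the transcription factor CREB and recruits the acetyltransferases CBP and p300 to genes that carry a cAMP response element (CRE). IL-1β, an inflammatory cytokine, acts through its receptor and MYD88 to activate NF-κB, and fibroblasts answer it with cytokines of the IL-6 family and with chemokines that attract neutrophils and monocytes.

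The 6 libraries held between 38842901 and 48594394 read pairs assigned to genes. Values are given as CPM, read pairs scaled to the library total with TMM, without correction for gene length, so they compare libraries and not genes. Sums over marker genes are CPM of the library total without TMM. Differences are log2 fold changes of clone A2 over *Lkb1*-/- MEFs ± SE, with the Benjamini-Hochberg FDR of edgeR's quasi-likelihood test over 17522 genes, and a gene is called at an FDR under 0.05. In the 6 libraries, the first principal component (64.7% of the variance) separated the genotypes and the second (28.2%) set both replicate 1 libraries apart from replicates 2 and 3. Fibroblast markers summed to between 6260 and 7250 CPM, 8 of 10 markers passed the filter on low counts (2 higher, 1 lower in clone A2, near the 17.1% and 15.8% of all genes; 3 and 2 with the replicate block; none higher without *Lkb1*-/- replicate 1), and *Thy1* (at most 3 counts) and *Lum* (at most 7) were nearly absent. *Ptprc*, *Cd3e* and *Myod1*, which define leukocytes, T cells and muscle, had no count in any of the 6 libraries. *Cd68*, a macrophage gene that other cells also transcribe, was higher in clone A2 (0.77 ± 0.20, FDR = 5.7e-03), as was *Des* (2.37 ± 0.48, FDR = 5.7e-04). *Cd68* held between 128 and 309 counts and no other haematopoietic marker above 2, so the haematopoietic sum repeats *Cd68*. *Des* held between 3 and 38 counts and no other muscle marker above 3. The summed haematopoietic markers were between 2.88 and 5.15 CPM in *Lkb1*-/- MEFs and between 5.88 and 7.39 CPM in clone A2, the summed muscle markers between 0.0772 and 0.191 and between 0.407 and 0.970 CPM, and the summed neural markers between 64.1 and 81.5 and between 45.4 and 52.3 CPM. Their part in the results below was not tested. In bulk RNA, fewer cells with a transcript and less of it per cell cannot be told apart.

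*Crtc2* and *Stk11*, the targeted genes, were checked in every library. *Crtc2* (chr3:90254163-90264125, plus strand, GRCm38) was at 79.4, 84.6 and 84.2 CPM in the *Lkb1*-/- libraries and at 56.4, 50.1 and 52.5 CPM in those of clone A2. The transcript was thus lower in clone A2 with no overlap (−0.64 ± 0.07, FDR = 2.8e-07), but it was not absent, and a gene-level count does not show whether an edited transcript still encodes the protein. *Stk11* (chr10:80115803-80130682, plus strand) was at 84.7 ± 1.48 CPM in wild-type MEFs after IL-1β, at 17.2, 16.9 and 16.3 CPM in *Lkb1*-/- MEFs and at 23.2, 19.95 and 18.9 CPM in clone A2. Both LKB1-deficient groups lay far below wild type, and clone A2 was slightly above *Lkb1*-/- MEFs (0.30 ± 0.07, FDR = 1.8e-03; FDR = 0.111 in a fit of only these groups), a difference that was 0.02 relative to the median of the genes on chromosome 10.

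Of the 17522 genes tested, 5755 (32.8%) were called, 2994 (17.1%) higher and 2761 (15.8%) lower in clone A2. Most of these differences were small, and 642 genes were higher and 611 lower by more than 1 on the log2 scale. In a fit of the 16 libraries of replicates 2 and 3, 6747 genes were called. For 6912 genes (39.4%), the CPM of the groups did not overlap.

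**Figure D1:**
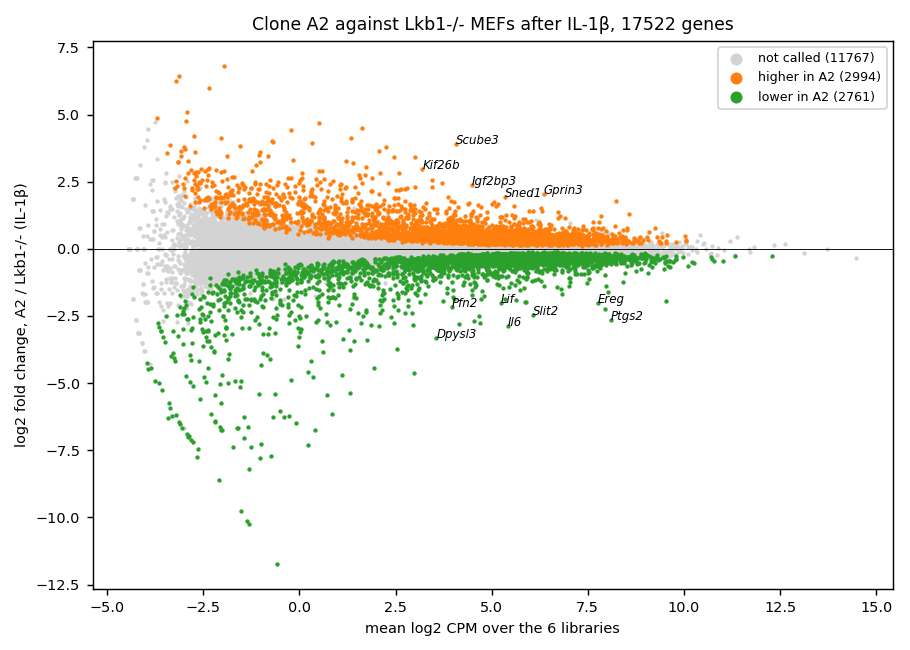
Each point is a gene, with its mean log2 CPM over the 6 libraries on the x axis and its log2 fold change of clone A2 over *Lkb1*-/- MEFs after IL-1β on the y axis. Called genes are orange (2994 higher in clone A2) or green (2761 lower), and 12 genes named in the text are labelled. The wide spread at the left belongs to genes with few counts.

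The cytokines of the IL-6 family, which signal through the shared receptor gp130, were among the genes that were lower in clone A2. Of the 8 ligands, 6 passed the filter on low counts, 4 were called lower (*Il11*, *Il6*, *Lif* and *Clcf1*), *Ctf1* was called higher and 1 was not called, where 15.8% of all genes were lower and 17.1% higher. Their median was −1.38 beside 0.01 over all genes, and −0.74 over the 5 ligand genes with at least 10 counts in every library. *Osm* and *Il27* had at most 1 count in a library. The regions in front of *Il6*, *Il11*, *Lif* and *Tnfsf11* are shown here with that of *Nr4a1*, an immediate-early gene known as a target of CREB, because CRTC2 acts through CRE sites. They are 250 bases before the RefSeq start on GRCm38.p6, written 5′ to 3′ on the strand of the gene, and capitals mark the core CGTCA, which reads TGACG on the other strand.

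*Il6* (chr5:30012864-30013113, plus strand): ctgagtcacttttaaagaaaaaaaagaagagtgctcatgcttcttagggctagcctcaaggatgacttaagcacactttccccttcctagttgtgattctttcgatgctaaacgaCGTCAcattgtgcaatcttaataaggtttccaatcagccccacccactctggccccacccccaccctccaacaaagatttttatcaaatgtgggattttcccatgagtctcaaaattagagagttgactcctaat
*Il11*, upstream start (chr7:4782858-4783107, minus strand): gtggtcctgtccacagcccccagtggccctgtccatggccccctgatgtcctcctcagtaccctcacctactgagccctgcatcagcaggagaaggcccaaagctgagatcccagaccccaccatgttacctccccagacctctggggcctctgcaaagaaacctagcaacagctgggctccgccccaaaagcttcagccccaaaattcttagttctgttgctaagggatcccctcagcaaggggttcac
*Il11*, downstream start (chr7:4778142-4778391, minus strand): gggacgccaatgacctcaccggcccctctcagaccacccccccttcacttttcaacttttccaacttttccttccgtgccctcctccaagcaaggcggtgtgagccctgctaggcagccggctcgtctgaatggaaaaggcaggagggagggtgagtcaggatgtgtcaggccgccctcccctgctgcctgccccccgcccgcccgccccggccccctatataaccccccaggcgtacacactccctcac
*Lif* (chr11:4257318-4257567, plus strand): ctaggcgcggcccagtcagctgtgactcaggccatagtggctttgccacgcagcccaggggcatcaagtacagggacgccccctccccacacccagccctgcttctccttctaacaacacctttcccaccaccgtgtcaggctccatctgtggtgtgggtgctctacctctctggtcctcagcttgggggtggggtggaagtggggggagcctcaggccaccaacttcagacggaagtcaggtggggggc
*Tnfsf11* (chr14:78308044-78308293, minus strand): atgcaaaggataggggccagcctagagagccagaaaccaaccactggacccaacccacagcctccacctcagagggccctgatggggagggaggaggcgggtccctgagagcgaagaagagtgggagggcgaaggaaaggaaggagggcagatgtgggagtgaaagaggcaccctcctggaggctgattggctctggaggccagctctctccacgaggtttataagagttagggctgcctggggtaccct
*Nr4a1* (chr15:101266596-101266845, plus strand): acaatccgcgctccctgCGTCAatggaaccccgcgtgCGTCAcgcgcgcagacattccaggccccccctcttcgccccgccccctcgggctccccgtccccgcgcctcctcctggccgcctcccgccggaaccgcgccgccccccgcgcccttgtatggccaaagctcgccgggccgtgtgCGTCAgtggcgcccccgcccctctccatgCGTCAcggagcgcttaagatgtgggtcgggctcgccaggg

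The full CRE (TGACGTCA) and its core (TGACG on either strand, which the full site also contains) were searched in windows from 250 bases before to 50 bases after the start. *Il6* held 1 core 135 bases before the start and *Nr4a1* held 4, at 233, 213, 69 and 40 bases before it. No core lay in the windows of *Il11*, *Lif* and *Tnfsf11*. Of 32851 promoter sequences, 1.79% held the full site and 20.8% a core. The shares that follow are per gene, counted where any of its promoter sequences held the site, and are not alike in unit. Only 10887 of the genes tested had a promoter sequence, and of these 3.5% held a full site and 34.7% a core. Among tested genes, a core lay in front of 39.3% of those called lower, 32.3% of those called higher and 34.2% of those not called, and a full site in front of 5.17%, 2.75% and 3.27%. Among genes called with a difference over 1, a core lay in front of 28.0% of those lower and 22.6% of those higher, both below the genes not called, and a full site in front of 4.22% and 2.09%. Of the 19 known CREB target genes with a promoter sequence, a list described below, 73.7% held a core and 10.5% a full site, and of the 14 of them called lower, 85.7% and 14.3%. These shares describe letters in a window and say nothing of binding.

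*Il6* (chr5:30013114-30019981, plus strand), the inflammatory cytokine that names the family, was at 122, 109 and 125 CPM in *Lkb1*-/- MEFs. In clone A2 it was at 10.5, 15.9 and 21.6 CPM, and in wild-type MEFs after IL-1β at 3.72 ± 1.07 CPM (SD, n = 3). Every clone A2 library lay below every *Lkb1*-/- library, a 7.40-fold difference (−2.89 ± 0.22, FDR = 6.2e-09), and clone A2 stayed above wild type (2.10 ± 0.23, FDR = 8.9e-08).

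*Il11* (chr7:4772373-4782859, minus strand), a cytokine of fibroblasts and stroma, was at 21.5, 17.9 and 24.6 CPM in *Lkb1*-/- MEFs and at 2.14, 1.15 and 1.47 CPM in clone A2. The gap between the groups was 13.4-fold (−3.75 ± 0.29, FDR = 6.1e-09). Clone A2 was close to wild type (1.17 ± 0.39 CPM), and a difference from it was not detected (0.43 ± 0.30, FDR = 0.23).

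*Lif* (chr11:4257557-4272514, plus strand), a cytokine known for keeping stem cells undifferentiated, was at 81.0, 67.9 and 80.8 CPM in *Lkb1*-/- MEFs. The clone A2 libraries lay at 20.4, 15.9 and 19.7 CPM, without overlap (4.10-fold; −2.03 ± 0.15, FDR = 3.0e-09). Wild-type MEFs had 21.95 ± 1.27 CPM, and clone A2 did not pass the test against them (−0.23 ± 0.15, FDR = 0.18). *Clcf1*, a ligand of the CNTF receptor, was at 48.5, 33.5 and 35.1 CPM in *Lkb1*-/- MEFs and at 31.1, 20.6 and 19.0 CPM in clone A2 (−0.73 ± 0.24, FDR = 0.026). This call was lost without clone A2 replicate 2 (FDR = 0.122), without clone A2 replicate 3 (FDR = 0.129) and without *Lkb1*-/- replicate 1 (FDR = 0.131). *Ctf1*, which encodes cardiotrophin 1, moved the other way (0.41 ± 0.15, FDR = 0.041), its groups overlapped, and the call was lost without any 1 of 4 libraries (clone A2 replicates 2 and 3, *Lkb1*-/- replicates 1 and 2), with an FDR as high as 0.23.

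The receptors that these ligands engage had a median of 0.24 and the JAK-STAT pathway genes 0.16, beside −1.38 for the ligands, and the lists were not tested against each other. None of the 6 receptor genes tested was lower, and *Lifr* and *Il6ra* were higher, beside 15.8% and 17.1% of all genes. The replicate block gave 3 higher and 1 lower. The higher count was 4 without clone A2 replicate 1 and 1 without clone A2 replicate 2 or 3 or *Lkb1*-/- replicate 1. *Lifr*, the receptor chain for LIF, was at 61.5, 100 and 89.6 CPM in *Lkb1*-/- MEFs and at 117, 213 and 220 CPM in clone A2 (1.13 ± 0.24, FDR = 8.1e-04). *Il6ra*, the chain that binds IL-6, differed little (0.25 ± 0.09, FDR = 0.032), and this call was lost without clone A2 replicate 2 (FDR = 0.0819), clone A2 replicate 3 (FDR = 0.0876) or *Lkb1*-/- replicate 1 (FDR = 0.148). Of 13 JAK-STAT genes, 4 were higher and 1 lower (all genes 17.1% and 15.8%). Their median of 0.16 was 0.0592 without *Lkb1*-/- replicate 1, 0.0875 without clone A2 replicate 3, 0.25 without clone A2 replicate 1 and 0.04 relative to the chromosome medians. With the replicate block 5 were higher and 2 lower, 2 were higher without clone A2 replicate 3 or *Lkb1*-/- replicate 1, and 2 were lower without clone A2 replicate 2 or *Lkb1*-/- replicate 1. *Socs2*, a feedback inhibitor of cytokine receptors, rose from 0.569 ± 0.147 to 2.56 ± 0.97 CPM (2.16 ± 0.28, FDR = 6.4e-06), far below wild type (36.9 CPM). *Stat5b*, a signal-transducing transcription factor, was higher (0.61 ± 0.16, FDR = 5.1e-03). *Jak2*, a receptor-bound kinase, was lower (−0.59 ± 0.16, FDR = 6.2e-03).

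**Figure D2:**
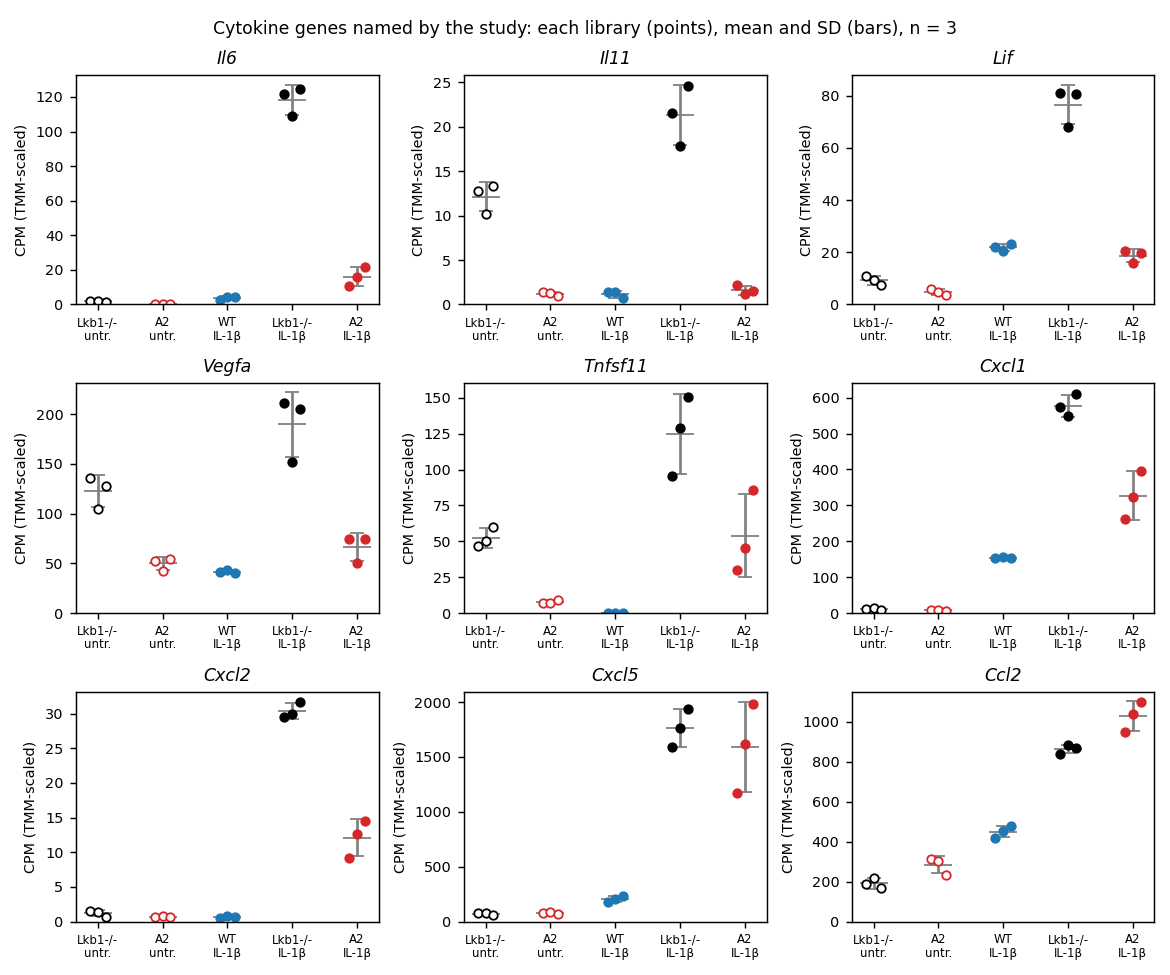
CPM (y axis, TMM-scaled) of 9 cytokine and chemokine genes in each library (points) with the mean and SD of 3 libraries (bars). Open points are untreated libraries of *Lkb1*-/- MEFs (black) and clone A2 (red), and filled points are IL-1β-stimulated libraries of these and of wild-type MEFs (blue). *Il6*, *Il11*, *Lif* and *Vegfa* show the filled red points far below the filled black ones, whereas those of *Cxcl5* overlap and those of *Ccl2* lie higher.

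*Vegfa* (chr17:46016993-46032369, minus strand), the main angiogenic growth factor, was at 212, 152 and 205 CPM in *Lkb1*-/- MEFs and at 74.6, 50.7 and 74.9 CPM in clone A2. The difference was 2.85-fold (−1.51 ± 0.15, FDR = 1.9e-07), and clone A2 remained above wild type (41.5 ± 1.57 CPM; 0.69 ± 0.15, FDR = 4.6e-04). *Tnfsf11* (chr14:78277445-78308043, minus strand), which encodes the osteoclast factor RANKL, was at 95.3, 129 and 151 CPM in *Lkb1*-/- MEFs and at 30.0, 45.6 and 86.0 CPM in clone A2. The groups did not overlap, but clone A2 spread widely (−1.22 ± 0.28, FDR = 2.5e-03), and none of the wild-type libraries held a read of this gene.

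Of 19 other cytokine and growth factor genes, 7 were lower and 4 higher (all genes 15.8% and 17.1%), and without clone A2 replicate 3 the counts were 8 and 2. Their median of −0.0053 took either sign, from −0.0907 without *Lkb1*-/- replicate 1 to 0.13 without clone A2 replicate 1. *Inhba*, the subunit of activin A, was at 129, 104 and 121 CPM in *Lkb1*-/- MEFs and at 34.9, 27.3 and 28.3 CPM in clone A2 (−1.96 ± 0.12, FDR = 2.8e-10). *Il33*, an alarmin of the IL-1 family, was lower (−5.13 ± 0.58, FDR = 8.2e-07), from 1.41 ± 0.41 CPM to 0.037 ± 0.011 CPM, a level of few reads. *Csf3*, which encodes the neutrophil growth factor G-CSF, fell from 11.6 ± 2.45 to 3.25 ± 1.76 CPM (−1.83 ± 0.40, FDR = 1.2e-03). *Csf1*, the macrophage growth factor, differed less (−0.58 ± 0.15, FDR = 4.9e-03). *Kitl*, which encodes stem cell factor, was higher, at 102, 199 and 211 CPM against 58.9, 80.0 and 82.0 CPM (1.21 ± 0.22, FDR = 2.2e-04). *Il18*, another IL-1 family cytokine, was higher as well (1.82 ± 0.27, FDR = 2.8e-05). The epidermal growth factor receptor ligands epiregulin (*Ereg*) and amphiregulin (*Areg*) were lower, *Ereg* at 98.6, 89.5 and 137 CPM against 452, 402 and 468 CPM (−2.02 ± 0.21, FDR = 3.3e-07).

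The CXC chemokines that attract neutrophils and share a cluster on chromosome 5 divided. *Cxcl1* (chr5:90891241-90893115, plus strand) was at 573, 549 and 611 CPM in *Lkb1*-/- MEFs and at 261, 322 and 397 CPM in clone A2, 1.77-fold lower (−0.82 ± 0.18, FDR = 1.5e-03). *Cxcl2* (chr5:90903871-90905938, plus strand) was at 29.6, 29.9 and 31.6 CPM and at 9.18, 12.7 and 14.5 CPM, 2.51-fold lower (−1.33 ± 0.18, FDR = 1.3e-05). *Cxcl3* was lower too (−2.85 ± 0.50, FDR = 1.6e-04), from 4.77 ± 0.34 to 0.667 ± 0.484 CPM. *Cxcl5* (chr5:90759360-90761624, plus strand) was at 1588, 1762 and 1939 CPM in *Lkb1*-/- MEFs and at 1171, 1615 and 1985 CPM in clone A2. Its groups overlapped and no difference was detected (−0.15 ± 0.16, 95% interval −0.47 to 0.17, FDR = 0.53). Against wild type, clone A2 was still higher in *Cxcl1* (1.08 ± 0.18, FDR = 3.0e-05), *Cxcl2* (4.31 ± 0.23, FDR = 5.6e-12) and *Cxcl5* (2.94 ± 0.18, FDR = 5.3e-12). These genes are close paralogs, and read pairs that aligned to more than 1 place were not counted.

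The chemokines for monocytes were not lower. *Ccl2* (chr11:82035571-82037453, plus strand) was at 842, 883 and 871 CPM in *Lkb1*-/- MEFs and at 952, 1039 and 1100 CPM in clone A2. Every clone A2 library was higher, and the difference (0.25 ± 0.10) missed the threshold (FDR = 0.066) but passed it with the replicate number as a block (FDR = 0.0209) and without clone A2 replicate 1 (FDR = 0.0354). Relative to the median of the genes on chromosome 11, the *Ccl2* difference turned to −0.10. *Ccl7*, at 468, 478 and 439 CPM and at 652, 592 and 538 CPM, behaved likewise (0.36 ± 0.14, FDR = 0.054), and was called with the block (FDR = 0.0125) and with DESeq2 (FDR = 0.0471) and was 0.01 relative to its chromosome. Of the 10 CC and interferon-type chemokines tested, *Ccl11* and *Ccl9* were higher and *Cxcl10*, which attracts T cells, was lower (−1.64 ± 0.39, FDR = 2.4e-03), counts near the 17.1% and 15.8% of all genes. The replicate block gave 4 higher and 1 lower. Their median of 0.31 was 0.13 without clone A2 replicate 3 and 0.05 relative to the chromosome medians. Among 6 homeostatic chemokines, *Cxcl12*, the ligand of CXCR4, was higher, at 78.9, 171 and 152 CPM against 38.3, 65.6 and 49.0 CPM (1.39 ± 0.26, FDR = 2.5e-04), as was *Cxcl14* at a low level (2.35 ± 0.22, FDR = 3.7e-07), and none was lower (all genes 17.1% and 15.8%), against 3 with the replicate block and 1 without clone A2 replicate 1 or 3 or *Lkb1*-/- replicate 1.

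Of 22 known CREB target genes, 16 were lower and 2 higher in clone A2, with a median of −0.83, beside 15.8% of all genes lower and 17.1% higher. Between 14 and 15 were lower when 1 library was left out, and 17 without the replicate 1 libraries. With the replicate block 17 were lower and 3 higher. *Nr4a1* was at 9.69, 10.8 and 9.45 CPM in *Lkb1*-/- MEFs and at 4.46, 3.06 and 4.95 CPM in clone A2 (−1.27 ± 0.17, FDR = 7.6e-06). Its relatives among the nuclear receptors, *Nr4a2* (−0.81 ± 0.20, FDR = 3.1e-03) and *Nr4a3* (−2.47 ± 0.37, FDR = 3.0e-05), were lower as well. *Crem*, which encodes CREB-related factors including the repressor ICER, was at 11.8, 11.4 and 13.3 CPM against 4.22, 4.29 and 6.02 CPM (−1.33 ± 0.14, FDR = 3.9e-07). *Rgs2*, an inhibitor of G-protein signalling, was lower as well (−1.55 ± 0.22, FDR = 1.3e-05).

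*Ppargc1a*, the coactivator PGC-1α of mitochondrial genes, was low in both groups, at 2.57, 1.54 and 1.80 CPM against 0.596, 0.425 and 0.343 CPM (−2.10 ± 0.33, FDR = 6.7e-05). *Areg* was lower (−2.74 ± 0.43, FDR = 4.4e-05), as was *Bdnf*, a neurotrophin (−1.24 ± 0.16, FDR = 6.0e-06). The phosphodiesterases *Pde4b* (−0.94 ± 0.14, FDR = 3.8e-05) and *Pde10a* (−0.84 ± 0.12, FDR = 3.1e-05), which degrade cAMP, were both lower. *Klf4* (−1.01 ± 0.15), *Dusp1* (−0.70 ± 0.09), *Gem* (−0.63 ± 0.13) and *Irs2* (−0.55 ± 0.11) were also called lower. The immediate-early genes *Fos* (−1.08 ± 0.40, FDR = 0.045) and *Fosb* (−0.77 ± 0.27, FDR = 0.031) were close to the threshold. The *Fos* call was lost without clone A2 replicate 1 (FDR = 0.19), clone A2 replicate 2 (FDR = 0.0814), *Lkb1*-/- replicate 2 (FDR = 0.0745) or *Lkb1*-/- replicate 3 (FDR = 0.167), and that of *Fosb* without any 1 of the 6 libraries (FDR between 0.0511 and 0.0798). The exceptions were *Atf3*, a stress-induced relative of CREB (0.84 ± 0.13, FDR = 5.1e-05), and *Cited2*, which binds CBP and p300 (0.76 ± 0.12, FDR = 5.5e-05). *Sik1* was at 39.4, 48.2 and 53.2 CPM and at 33.5, 41.7 and 41.9 CPM, overlapping (−0.26 ± 0.14, FDR = 0.15), and was called with the replicate block (FDR = 0.0169).

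In the pathway itself, 7 of 20 genes were lower and 4 higher, where 15.8% and 17.1% of all genes were. The paralog *Crtc1* was lower, at 43.1, 41.3 and 43.2 CPM against 52.99, 60.2 and 62.8 CPM (−0.46 ± 0.07, FDR = 4.4e-05). *Hdac4*, a class IIa deacetylase held by SIKs, was at 34.4, 37.1 and 39.0 CPM against 63.7, 78.6 and 80.9 CPM (−1.01 ± 0.10, FDR = 1.7e-07), and its relative *Hdac5* was higher (0.70 ± 0.13, FDR = 3.7e-04). *Ep300*, which encodes p300, was higher (0.34 ± 0.06, FDR = 2.7e-04), as was *Strada*, the pseudokinase partner of LKB1 (0.47 ± 0.08, FDR = 7.5e-05), but relative to the medians of their chromosomes *Crtc1* was at −0.16, *Hdac5* at 0.34, *Ep300* at 0.13 and *Strada* at 0.12.

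**Figure D3:**
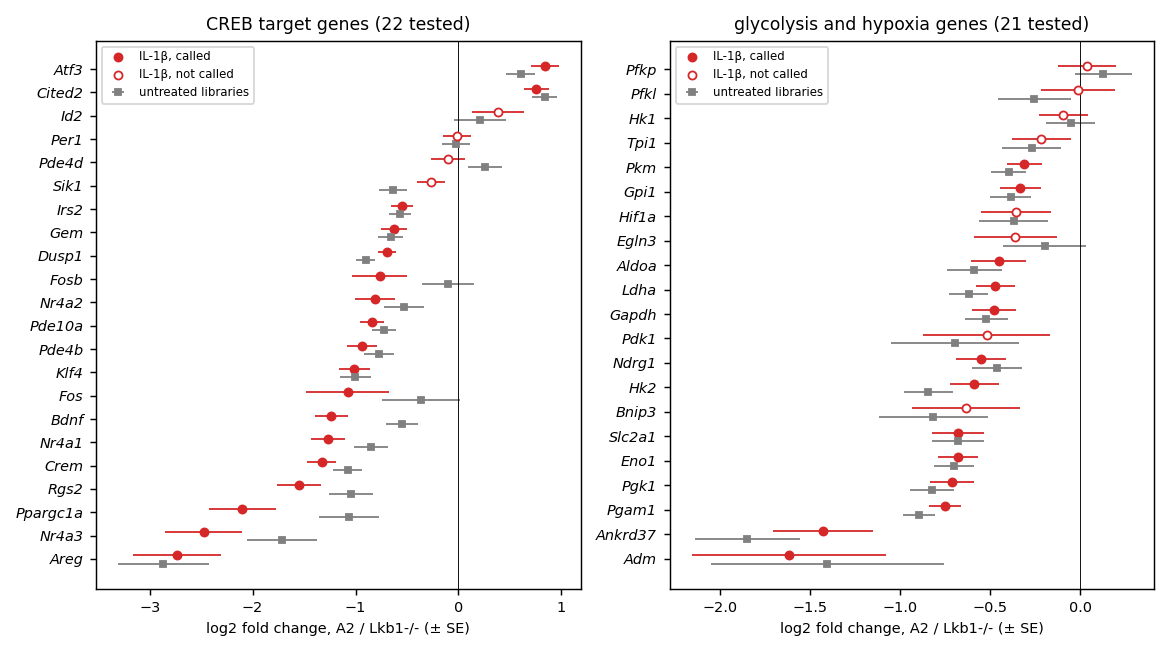
Log2 fold change of clone A2 over *Lkb1*-/- MEFs (x axis, ± SE) for each CREB target gene (left) and each gene of glycolysis and hypoxia (right). Red circles are IL-1β-stimulated libraries, filled where called, and grey squares are the untreated libraries. Of the CREB targets 16 of 22 are called lower and 2 higher, and of the glycolysis and hypoxia genes 13 of 21 are called lower and none higher.

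Of 28 NF-κB factors and targets, 9 were lower and 2 higher, beside 15.8% and 17.1% of all genes. Their median of −0.11 ranged from −0.0136 without clone A2 replicate 1 to −0.31 without clone A2 replicate 3, with −0.21 without *Lkb1*-/- replicate 1, −0.0584 without *Lkb1*-/- replicate 2 and −0.26 relative to the chromosome medians. With the replicate block 12 were lower and 4 higher, without a filter on low counts 12 and 5, and in a fit of only these groups 10 and 0. The higher count was 4 without clone A2 replicate 1 and 1 without clone A2 replicate 3 or *Lkb1*-/- replicate 1. *Ptgs2*, the inducible cyclooxygenase that makes prostaglandin precursors and also a known CREB target, was at 789, 577 and 757 CPM in *Lkb1*-/- MEFs and at 90.8, 89.7 and 156 CPM in clone A2. This 6.31-fold gap (−2.66 ± 0.27, FDR = 2.0e-07) placed clone A2 below wild type (336 ± 52.8 CPM; −1.58 ± 0.26, FDR = 1.6e-05). *Ptges*, which encodes the next enzyme toward prostaglandin E, was lower as well (−1.65 ± 0.34, FDR = 7.2e-04). The NF-κB subunit genes *Nfkb1* (−0.72 ± 0.09, FDR = 3.1e-06) and *Nfkb2* (−0.62 ± 0.07, FDR = 1.1e-06) were lower, and *Zc3h12a*, an RNase that degrades cytokine mRNAs, too (−0.68 ± 0.15, FDR = 1.5e-03). *Nos2*, the inducible nitric oxide synthase, was at 60.0, 122 and 126 CPM and at 60.9, 113 and 157 CPM, overlapping throughout (0.11 ± 0.36, FDR = 0.86).

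Of 18 genes of IL-1 receptor signalling, 4 were lower and 2 higher, a share near the 15.8% and 17.1% of all genes. With the replicate block 7 were lower and 4 higher. The higher count was 5 without clone A2 replicate 1, 4 without *Lkb1*-/- replicate 3 and 1 without clone A2 replicate 3 or *Lkb1*-/- replicate 1 or 2. The receptor *Il1r1* overlapped between the groups, at 149, 193 and 184 CPM and at 134, 172 and 158 CPM (−0.18 ± 0.14, FDR = 0.35). The kinase *Irak1* was lower (−0.86 ± 0.07, FDR = 1.3e-08). *Il1rl1*, the receptor of IL-33, was at 1502, 1368 and 1517 CPM against 448, 314 and 385 CPM (−1.94 ± 0.19, FDR = 1.5e-07), so that ligand and receptor of this pair were both lower. Of 22 interferon-stimulated genes, 18 were not called, *Rsad2* (−4.09 ± 0.82, FDR = 5.7e-04) and *Ifit1* (−2.54 ± 0.68, FDR = 6.2e-03) were lower, and *Irf1*, an IL-1β-responsive transcription factor (0.74 ± 0.14, FDR = 3.6e-04), and the antiviral GTPase *Mx1* (2.47 ± 0.75, FDR = 0.014) were higher. With the replicate block 4 interferon-stimulated genes were lower and 4 higher, without a filter on low counts 8 and 6, and in a fit of only these groups 6 and 2 of 21. The *Mx1* call was lost without *Lkb1*-/- replicate 1 (FDR = 0.0633).

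Of 21 genes of glycolysis and the hypoxia response, 13 were lower and none higher (median −0.48), beside 15.8% and 17.1% of all genes, and in the untreated libraries also 13 lower and none higher. Leaving out 1 library gave between 9 and 16 lower, and 18 were lower with the replicate block and without a filter on low counts. *Slc2a1*, the glucose transporter GLUT1, was at 213, 300 and 271 CPM in *Lkb1*-/- MEFs and at 124, 165 and 201 CPM in clone A2 (−0.68 ± 0.14, FDR = 1.0e-03). The glycolytic enzymes *Hk2* (−0.59 ± 0.14, FDR = 1.9e-03), *Pgk1* (−0.71 ± 0.12, FDR = 1.3e-04), *Pgam1* (−0.75 ± 0.09, FDR = 1.9e-06), *Eno1* (−0.68 ± 0.11, FDR = 7.4e-05) and *Ldha* (−0.47 ± 0.11, FDR = 2.2e-03) were lower by similar amounts. *Ankrd37*, a target of hypoxia-inducible factor, was lower at a low level (−1.43 ± 0.28, FDR = 4.3e-04). *Hif1a*, its transcription factor, was at 692, 993 and 985 CPM and at 466, 750 and 869 CPM, overlapping (−0.36 ± 0.19, FDR = 0.17). It was called with the replicate block (FDR = 0.00514), and without clone A2 replicate 3 (FDR = 0.0319).

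The genes with the widest differences were chosen by size, 12 in each direction, among called genes whose groups did not overlap and whose log2 CPM averaged above 3. Among the 12 lower genes, *Il6*, *Ptgs2*, *Lif* and *Ereg* have been given. *Dpysl3*, a cytoskeletal protein of growing axons, was at 32.1, 34.8 and 46.4 CPM against 3.91, 2.66 and 4.85 CPM (−3.32 ± 0.27, FDR = 1.3e-08). *Ucp2*, a mitochondrial carrier, was at 39.8, 49.7 and 50.2 CPM against 7.24, 6.73 and 6.10 CPM (−2.80 ± 0.13, FDR = 6.3e-12). The guidance ligands *Slit2* (−2.45 ± 0.13, FDR = 2.1e-11) and *Slit3* (−2.75 ± 0.20, FDR = 6.7e-09), which act on ROBO receptors, were both lower. So were *Ulbp1*, a stress ligand of the NKG2D receptor (−2.68 ± 0.12, FDR = 1.6e-12), the PAR bZIP factor *Hlf* (−2.51 ± 0.33, FDR = 6.8e-06) and the actin-binding *Pfn2* (−2.15 ± 0.10, FDR = 6.3e-12). *Dcn*, the matrix proteoglycan decorin and a fibroblast marker, was at 503, 558 and 581 CPM against 92.7, 88.4 and 167 CPM (−2.24 ± 0.29, FDR = 5.5e-06).

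Among the 12 higher genes, *Scube3*, a secreted glycoprotein, was at 46.0, 78.2 and 76.2 CPM in clone A2 against 3.21, 4.84 and 5.33 CPM (3.90 ± 0.36, FDR = 5.9e-08). *Gnai1*, an inhibitory G-protein subunit that restrains adenylyl cyclase, was at 21.5, 28.9 and 29.3 CPM against 3.74, 4.76 and 4.87 CPM (2.57 ± 0.17, FDR = 9.5e-10). *Igf2bp3*, an RNA-binding protein of fetal tissue, was at 46.2, 56.9 and 49.4 CPM against 8.49, 11.3 and 9.57 CPM (2.37 ± 0.12, FDR = 1.1e-11). The others were *Phactr1*, *Kif26b*, *Xlr*, *Nav3*, *Plppr3*, *Gprin3*, *Sned1*, *Ccn5* and *Gstm2*, with log2 fold changes between 1.80 and 3.43.

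Most of these differences were present before stimulation. In the untreated libraries, which are other libraries of the same genotypes, 5655 genes (32.3%) were called, and 4604 genes were called in both comparisons, 80.0% of the calls after IL-1β and 81.4% of those without it. All 4604 had the same direction. Of the 1253 genes called with a difference over 1 after IL-1β, 1008 were called in that direction untreated. Over 9516 genes with a mean log2 CPM above 3, Pearson's r of the fold changes was 0.95. This is a correlation across genes, and genes are no independent replicates. *Il6* was at 2.22, 2.02 and 1.43 CPM in untreated *Lkb1*-/- MEFs and at 0.383, 0.255 and 0.132 CPM in untreated clone A2 (−2.85, FDR = 5.4e-06), *Il11* was lower by a similar amount (−3.33, FDR = 3.4e-08), and so was *Ptgs2* (−2.69, FDR = 2.3e-07). *Lif* differed less without IL-1β (−0.91, FDR = 1.3e-04).

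**Figure D4:**
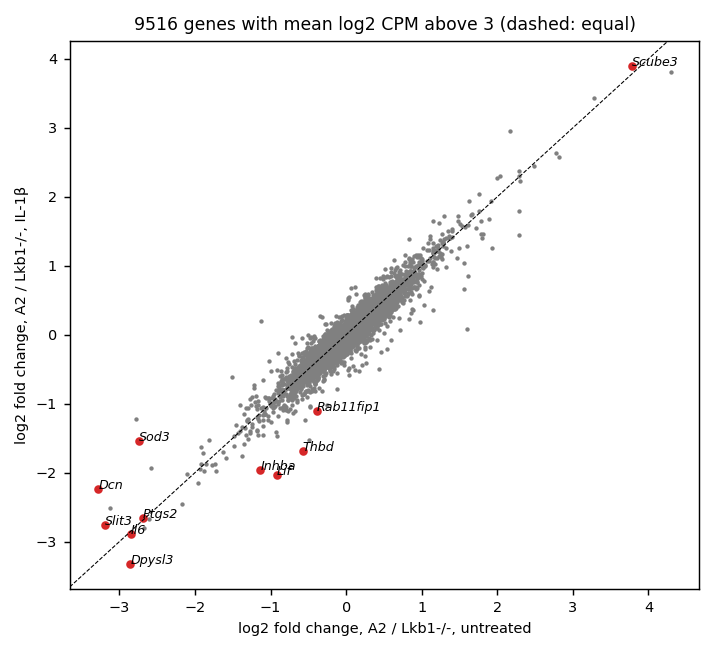
Log2 fold change of clone A2 over *Lkb1*-/- MEFs in untreated libraries (x axis) and after IL-1β (y axis) for 9516 genes with a mean log2 CPM above 3. The dashed line marks equal values, and named genes are red. *Il6* and *Ptgs2* lie near the line, *Lif*, *Thbd* and *Inhba* below it, and *Dcn* and *Sod3* above it.

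*Il6* rose with IL-1β by 5.96 on the log2 scale in *Lkb1*-/- MEFs and by 5.93 in clone A2, and *Ptgs2* by 2.46 and 2.50. *Lif* rose by 3.05 and 1.93, and *Cxcl1* by 5.63 and 5.35. The difference of the IL-1β responses itself was then tested, clone A2 minus *Lkb1*-/-, over the 12 libraries of these groups within the fit of all 24. No gene was called by edgeR's quasi-likelihood test, which leaves the spread between replicate numbers in its error, and DESeq2 called 12. In that edgeR test 388 genes had an unadjusted p under 0.05, a smaller share than the 0.05 expected if no gene differed. The replicate numbers pair the libraries, and with the replicate number as a block 18 genes were called, 6 with a positive and 12 with a negative difference. In this blocked edgeR test 996 genes had an unadjusted p under 0.05. A negative difference means a smaller rise, a turn to a fall or a deeper fall in clone A2. With a block within each genotype, chosen after seeing the data, 183 were called (1.04%), 69 with a positive and 114 with a negative difference, and 1735 had an unadjusted p under 0.05.

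The 18 genes were named after their values were seen. *Lif* was among them (−1.12 ± 0.18, FDR = 6.3e-03 with the block), with a smaller rise in clone A2. *Inhba* rose by 0.30 in *Lkb1*-/- MEFs and fell by 0.53 in clone A2 (difference −0.83 ± 0.12, FDR = 9.99e-04 with the block). *Thbd*, the anticoagulant receptor thrombomodulin, rose by 0.73 and fell by 0.37 (difference −1.13 ± 0.16, FDR = 9.99e-04 with the block). *Bdnf* fell by 0.59 and by 1.27 (difference −0.69 ± 0.14, FDR = 0.047 with the block). In the other direction, *Sod3*, the extracellular superoxide dismutase, rose by 0.98 and by 2.18 (difference 1.19 ± 0.19, FDR = 6.3e-03 with the block), and *Ccl5* by 1.99 and 5.59 (difference 3.58 ± 0.60, FDR = 9.96e-03 with the block) from a very low untreated level in clone A2 (0.040, 0.116 and 0.330 CPM). *Il6* was not called with the block within each genotype (FDR = 0.99), whereas *Tnfsf11* was (rises of 1.26 and 2.82, FDR = 1.6e-04), with the larger response in clone A2.

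Genes induced by IL-1β in wild-type MEFs, defined in libraries outside this comparison, numbered 268 (1.53% of those tested). In clone A2 against *Lkb1*-/- MEFs after IL-1β, 87 of them (32.5%) were lower and 51 (19.0%) higher, beside 15.8% and 17.1% of all genes, with a median of −0.09. With the replicate block the list itself grew to 824 genes, of which 269 were lower and 228 higher, and without clone A2 replicate 1 it held 296 genes, with 75 lower and 81 higher. Their median response was 0.71 in *Lkb1*-/- MEFs and 0.72 in clone A2. Of the 128 genes lowered by IL-1β in wild type, 18 were lower and 53 higher in clone A2. Genes that were higher by over 1 in untreated *Lkb1*-/- than in wild-type MEFs numbered 2780 (15.9%), and of these 508 (18.3%) were lower and 590 (21.2%) higher in clone A2 after IL-1β.

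The position of a gene moved with its difference. Over 9511 genes with a mean log2 CPM above 3, of which 42.8% were called, the median was 0.01, but it was 0.35 on chromosome 11, 0.28 on chromosome 10 and 0.21 on chromosome 15, and −0.31 on chromosomes 8 and 19. On chromosome 11, 521 of 765 genes were higher and 9 lower, and on chromosome 8, 9 of 533 were higher and 317 lower. The medians of the untreated libraries differed from these by at most 0.03. Copy number was not measured, and its part in these medians was not tested. Relative to the median of its chromosome, *Il6* was at −2.94, *Il11* at −3.80, *Lif* at −2.39 and *Vegfa* at −1.57. Smaller differences on these chromosomes changed more. Among the called genes named above, *Cd68* was then at 0.42, *Stat5b* at 0.26 and *Irf1* at 0.39 (chromosome 11), *Cited2* at 0.47 (chromosome 10), *Irs2* at −0.24 (chromosome 8), *Clcf1* at −0.42, *Jak2* at −0.28, *Nfkb2* at −0.31 and *Pgam1* at −0.44 (chromosome 19), and *Il6ra* at 0.39 (chromosome 3). Of 216 genes at this level with a difference over 1, 158 also passed 1 relative to their chromosome.

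**Figure D5:**
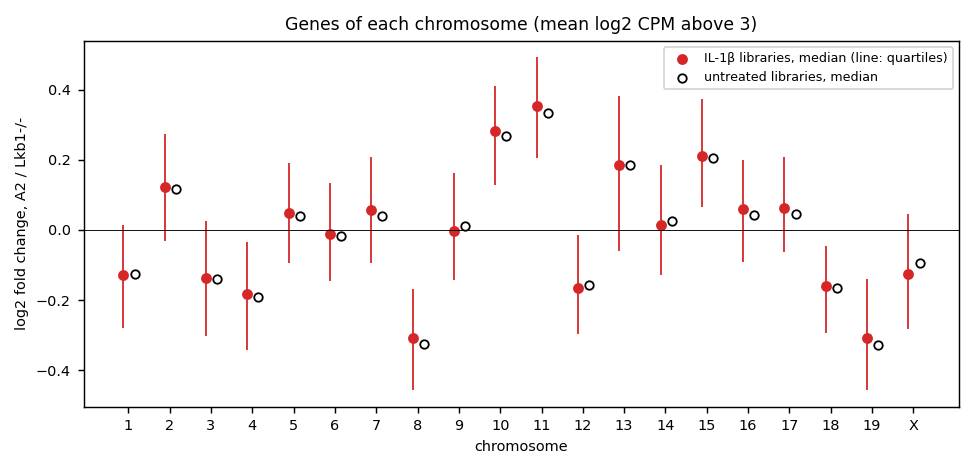
Median log2 fold change of clone A2 over *Lkb1*-/- MEFs (y axis) over the genes of each chromosome (x axis) with a mean log2 CPM above 3, in IL-1β-stimulated (red, with a line from the lower to the upper quartile) and untreated libraries (open circles). Medians run from −0.31 on chromosomes 8 and 19 to 0.35 on chromosome 11 and lie close together in both treatments.

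Clone A1, a second double-knockout clone, differed from clone A2 after IL-1β in 5374 genes (30.7%), and clone A2 differed from wild type in 10656 (60.8%). Both clones share the *Lkb1*-/- libraries as their reference, so their values are given side by side. *Il6* was at 5.88 ± 0.09 CPM in clone A1 and 15.99 ± 5.56 CPM in clone A2, *Il11* at 2.32 ± 0.31 and 1.59 ± 0.51 CPM, and *Lif* at 42.1 ± 0.69 and 18.7 ± 2.42 CPM. Tested directly, clone A2 was higher than clone A1 in *Il6* (1.44, FDR = 4.3e-05) and lower in *Lif* (−1.17, FDR = 3.1e-06), and a difference in *Il11* was not detected (−0.55, FDR = 0.16). *Vegfa* (0.23, FDR = 0.27) and *Nr4a1* (−0.02, FDR = 0.96) did not pass this test either.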

How the data were processed

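RNA-seq of 3T3 MEFs was analysed. The authors trimmed paired reads with Trim Galore 0.6.0, aligned them with STAR 2.7.8a to GRCm38 (mm10) with GENCODE annotation, and deposited raw counts, which STAR gives per gene under 3 strand settings. The library kit is not settled, since the labels name SMARTER mRNA-Seq and the paper's methods KAPA RNA HyperPrep with ribosomal RNA depletion. The counts of STAR's column 4 were used, the strand that took 95.5% to 95.8% of all pairs with a strand-specific assignment. The tables hold 55471 genes and 4 lines that name no gene, with between 28.2% and 34.4% of the pairs of the 6 libraries, which were left out. GENCODE M21 supplied symbols and positions (55230 identifiers with a symbol) and RefSeq the promoters.

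All 24 libraries were fitted with edgeR 4.0.16 (limma 3.58.1, R 4.3.3) after filterByExpr (minimum count 10, total 15) and TMM, with 1 coefficient per group, using the older quasi-likelihood form. The range of depth is in the report, and the common biological coefficient of variation was 0.129. With 3 libraries against 3, an exact permutation test of a single gene cannot go below p = 0.1. Libraries with the same replicate number deviated together from their group means (r = 0.82, 0.63 and 0.72 for the 3 pairs of clone A2 and *Lkb1*-/- after IL-1β over 9369 genes), so the numbers pair the libraries. What a number stands for is not given in the sources used here.

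The members and gene lists were chosen with earlier results of these data known, so the lists have counts and medians and no test. Named are members of the lists, the 12 genes per direction with the largest fold change (called, mean log2 CPM above 3, no overlap), the cytokine genes the study names, *Crtc2* and *Stk11*. Alternatives were unstranded counts, RLE and upper quartile normalization, other filters, the newer quasi-likelihood method, the replicate block, DESeq2 1.42.0, a fit of the compared groups alone, and each library left out in turn. The 16 libraries of replicates 2 and 3, the block within each genotype and the chromosome medians were added after seeing the data.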

Additional observations from a re-analysis of the deposited data

Results flagged for a closer look

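Of 31 genes named by size or by the study, 21 differed between clone A2 and clone A1 after IL-1β in a direct test (edgeR quasi-likelihood test, FDR under 0.05), beside 30.7% of all genes tested. Most of the 31 were chosen for a large difference of clone A2 from *Lkb1*-/- MEFs, which favours a difference between the clones and a larger value in clone A2, so the counts are a description. These differences are log2 fold changes of clone A2 over clone A1, whose reference libraries are the same, and their cause was not tested. *Dpysl3* (−4.57, FDR = 2.0e-10) and *Xlr* (3.81, FDR = 1.7e-12) moved in opposite directions in the clones, with *Dpysl3* at −3.32 in clone A2 and 1.25 in clone A1 against *Lkb1*-/- MEFs.

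For 9 genes both clones differed from *Lkb1*-/- MEFs in 1 direction and clone A2 lay farther from them: *Lif* (−1.17), *Ptgs2* (−0.98), *Pfn2* (−1.42), *Slit2* (−1.05), *Ulbp1* (−1.34), *Scube3* (1.67), *Phactr1* (2.10), *Gprin3* (1.32) and *Sned1* (1.10). For 6 genes clone A1 lay farther from *Lkb1*-/- MEFs, namely *Il6* (1.44), *Slit3* (0.98), *Tnfsf11* (1.19), *Ucp2* (0.54), *Nav3* (−0.88) and *Ccl2* (−0.51). The remaining 4, *Cxcl2* (−1.05), *Cxcl5* (−0.43), *Hlf* (−1.93) and *Plppr3* (2.12), were not called in clone A1 against *Lkb1*-/- MEFs.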

How the results depend on the processing

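Every count of called genes for clone A2 against *Lkb1*-/- MEFs lay within 1.5 times its reported value of 5755, from 4362 with only the groups compared to 8163 with the replicate block, and from 4864 to 5797 with each library left out. The difference of the IL-1β responses was the exception, with 0 genes as reported, 1 with upper quartile normalization, 68 without a filter, 12 with DESeq2, 18 with the replicate block, 183 with the block within each genotype, 6 in the 16 libraries of replicates 2 and 3, and between 0 and 1 with each library left out. Wild-type IL-1β-induced genes lower in clone A2 numbered 157 (of 511, 137 higher) without a filter, 269 (of 824, 228 higher) with the replicate block and 149 (of 484, 131 higher) in those 16 libraries, in place of 87 (51 higher), as the list itself grew. Genes raised in untreated *Lkb1*-/- MEFs and lower in clone A2 numbered 248 (of 1146) in place of 508 with at least 10 counts in every library, where fewer genes were tested. With each library left out, *Cxcl5* ranged from −0.34 (without clone A2 replicate 3) to 0.0501 (without clone A2 replicate 1) and *Nos2* from −0.24 (without clone A2 replicate 3) to 0.43 (without clone A2 replicate 1), and it was −0.17 without *Lkb1*-/- replicate 1. Relative to the median of its chromosome, *Ccl2* became −0.10 and *Nos2* −0.25. The causes were not tested. Of 121 genes followed through these settings, the replicate block added the calls of *Ccl2*, *Ccl7*, *Hif1a* and *Sik1* and changed no other call. Further members of the lists gained a call with the block, such as *Ackr3* (FDR = 0.0022 in place of 0.21) and *Bnip3* (FDR = 0.00091 in place of 0.11). *Ccl2*, *Ccl7*, *Hif1a* and *Sik1* were also called without a filter, where *Ctf1* (FDR = 0.107), *Fosb* (FDR = 0.0608) and *Il6ra* (FDR = 0.0843) lost their calls. *Ctf1* also lost it with unstranded counts (FDR = 0.0536) and, with *Il6ra* (FDR = 0.0851), in a fit of the compared groups alone (FDR = 0.146). *Fos* lost its call with unstranded counts (FDR = 0.0584), the newer quasi-likelihood method (FDR = 0.0501) and a fit of the compared groups alone (FDR = 0.0876). The median over all genes stayed between −0.0151 and 0.0481. Genes with few reads, such as *Il33*, have wide errors at this depth.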

Other observations

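Of 26 cell cycle genes, 7 were lower and 5 higher in clone A2 after IL-1β, beside 15.8% and 17.1% of all genes, and 3 were higher without clone A2 replicate 3 or *Lkb1*-/- replicate 1. The D-type cyclins *Ccnd1* (−1.17 ± 0.26, FDR = 1.3e-03) and *Ccnd2* (−2.76 ± 0.29, FDR = 3.2e-07), which drive entry into the cycle, were lower, as were the proliferation marker *Mki67* (−0.41 ± 0.07, FDR = 1.7e-04) and the replication helicase subunit *Mcm5* (−0.47 ± 0.07, FDR = 1.5e-05). The kinases *Cdk4* (0.46 ± 0.05, FDR = 8.2e-07) and *Cdk2* (0.45 ± 0.06, FDR = 5.1e-06) were higher, but at 0.176 and 0.165 relative to the median of chromosome 10, and *Mcm5* was at −0.16 relative to that of chromosome 8. Of 16 genes of p53 and its targets, 4 were lower and 5 higher, beside 15.8% and 17.1% of all genes. These counts were 4 and 7 with the replicate block and 1 and 7 without clone A2 replicate 1. They were 1 and 4 without *Lkb1*-/- replicate 3, and 4 and 3 without *Lkb1*-/- replicate 1. *Trp53* itself was higher (0.47 ± 0.09, FDR = 3.3e-04, but at 0.12 relative to the median of chromosome 11). *Perp*, a membrane protein induced by p53, was lower (−1.36 ± 0.14, FDR = 2.3e-07).

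Of 22 matrix proteases and inhibitors, 4 were lower, a share near the 15.8% of all genes, and 6 higher, beside 17.1% (11 higher with the replicate block, 3 without *Lkb1*-/- replicate 1). *Mmp2*, a gelatinase, was at 341, 494 and 569 CPM in *Lkb1*-/- MEFs and at 101, 155 and 202 CPM in clone A2 (−1.62 ± 0.28, FDR = 1.3e-04), and the inhibitors *Timp1* (−0.81 ± 0.13, FDR = 6.0e-05) and *Timp3* (−1.23 ± 0.16, FDR = 6.1e-06) were lower too. The procollagen protease *Adamts2* was higher (1.54 ± 0.28, FDR = 2.1e-04). Of 17 collagen genes, 1 was lower and 1 higher, beside 15.8% and 17.1% of all genes, whereas the replicate block gave 5 lower and 4 higher. Without *Lkb1*-/- replicate 1 there were 3 lower and none higher, without *Lkb1*-/- replicate 2 none lower, without clone A2 replicate 3 there were 2 lower and without clone A2 replicate 1 there were 2 higher. Of 15 contractile genes, 6 were lower and 3 higher (all genes 15.8% and 17.1%), with *Acta2*, the actin of myofibroblasts, at 12.9, 20.5 and 12.8 CPM against 3.09, 5.42 and 5.63 CPM (−1.71 ± 0.31, FDR = 2.0e-04) and *Cnn1* higher at a low level (1.60 ± 0.22, FDR = 9.0e-06). Of 22 sterol synthesis genes, 3 were lower and 1 was higher, beside 15.8% and 17.1% of all genes. Among the lower was *Msmo1* (−0.80 ± 0.16, FDR = 6.9e-04, and −0.49 relative to the median of chromosome 8). With the replicate block and without clone A2 replicate 1 or *Lkb1*-/- replicate 2, 5 sterol synthesis genes were lower, and none was higher without clone A2 replicate 3. Of 39 Hox genes, 17 passed the filter, 1 was lower and 1 (*Hoxa11*, 0.61 ± 0.11, FDR = 2.1e-04) higher, beside 15.8% and 17.1% of all genes. The Hox genes had 3 higher under the replicate block or without clone A2 replicate 1 and 2 without *Lkb1*-/- replicate 3. None of the Hox genes was lower without clone A2 replicate 1 or 3 or any 1 *Lkb1*-/- library.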
